A study of Mus musculus with 10 samples.

Results

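Sterol synthesis and cholesterol handling were followed through 30 genes, chosen by name for their roles with earlier results of these data known. The genes were found by matching the Ensembl identifiers of the deposited count files to mouse symbols. All 30 were found among the 55385 genes listed, and all 30 passed the filter on low counts. They comprise 19 enzymes of synthesis, of which 9 lead to squalene or branch from that route and 10 act from squalene to cholesterol, 5 genes of SREBP control, the sterol carrier Stard4, and 5 genes of LXR signalling and cholesterol efflux. RNA-seq was done on endothelial cells of mouse liver, enriched from non-parenchymal cells on a Nycodenz gradient with beads against CD146, in 5 libraries whose titles read Alk1-HEC-KO (genotype KO) and 5 whose titles read Control (genotype WT). Alk1 is the alias of Acvrl1, an endothelial receptor of the BMP family. The sources used here do not give the strain, sex, age or treatment of the mice, the driver, timing or deleted exons of the knockout, or whether 1 library is 1 animal. The p-values therefore measure the spread between these libraries, which may be technical.

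Cells make cholesterol from acetyl-CoA, first by joining small units into squalene and then by folding squalene into the sterol ring and trimming it. The enzymes are switched on together by SREBP-2, a transcription factor that SCAP carries from the endoplasmic reticulum when sterols are low and that the INSIG proteins hold back when sterols are high. When oxysterols build up, the nuclear receptors LXR-alpha and LXR-beta switch on genes that export cholesterol or limit its uptake. Liver sinusoidal endothelium is a lining with open pores that lies between the blood and the hepatocytes, the main site of cholesterol synthesis in the body.

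Library totals lay between 23489494 and 23602771 estimated counts, and the members had from 66 to 12042 counts per library. The targeted gene went against its label: Acvrl1 was at 114 to 136 CPM (counts scaled to the size of the library, TMM-adjusted) in the controls and at 239 to 258 CPM in the libraries labelled Alk1-HEC-KO (exact two-sided permutation p = 0.0079, the smallest that 5 against 5 can give). Counts per gene cannot tell a full transcript from one that lacks an exon. These are therefore called knockout-labelled libraries, and each direction is theirs against the controls. The 12 endothelial markers were detected, with summed levels of 13798 to 14591.2 TPM (a level corrected for transcript length) in the controls and 12149.8 to 13143.6 TPM in the knockout-labelled libraries, ranges that do not overlap. Of these 12 markers 4 rose and 5 fell. The 13 hepatocyte markers summed to 617 to 2309.9 TPM in the controls and 594 to 1295.4 TPM in the knockout-labelled libraries, highest in controls 2 and 4, and 3 of the 13 fell. The 12 Kupffer cell markers ran from 942 to 3030.6 TPM in the controls and from 942 to 2233.5 TPM in the knockout-labelled libraries, and 0 of the 12 were called by edgeR, limma-voom or DESeq2 (1 with an unadjusted p under 0.05 by each). Of 6 bile duct markers 5 rose (195 to 278 CPM in sum against 380 to 648 in the knockout-labelled libraries), and of 13 mitochondrially encoded mRNAs 6 fell, with the highest sum in control 4. The part of these shifts in the results was not tested, except where a covariate is named. In bulk RNA, fewer cells of a type and less RNA per cell cannot be told apart.

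Of the 30 members 6 fell, 1 rose and 23 did not pass the test (edgeR quasi-likelihood, Benjamini-Hochberg adjusted p under 0.05). Over all 15043 genes tested, 19.7% were called, 9.08% lower and 10.6% higher. Mylip and Sc5d fell by the most, Msmo1, Insig2, Stard4 and Ggps1 by less, and Abca1 rose. The estimate was below 0 for 24 of 30 members, against 50% of all genes tested, and the median log2 fold change was -0.14 for the members and 0.0 for all genes. Groups did not overlap for Mylip, Sc5d and Ggps1, which were lower (7.05% of all genes), and for Abca1, which was higher (8.4% of all genes). Without control 1, 10 members fell in place of 6, and without controls 4 and 5 together 2 fell (Mylip and Sc5d) and 0 rose by edgeR. Controls 4 and 5 were the only pair left out, and a fit with fewer controls can lose calls for that reason alone. Of all calls 53.8% were higher as scaled here by TMM and 65.8% with library size alone. With limma on log2(TPM + 1), where unit and test differ too, 73.3% were higher. The median of all genes shifted by 0.05 with library size alone and by 0.08 and 0.1 on log2 TPM with pseudocounts of 1 and 0.1.

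**Figure D1:**
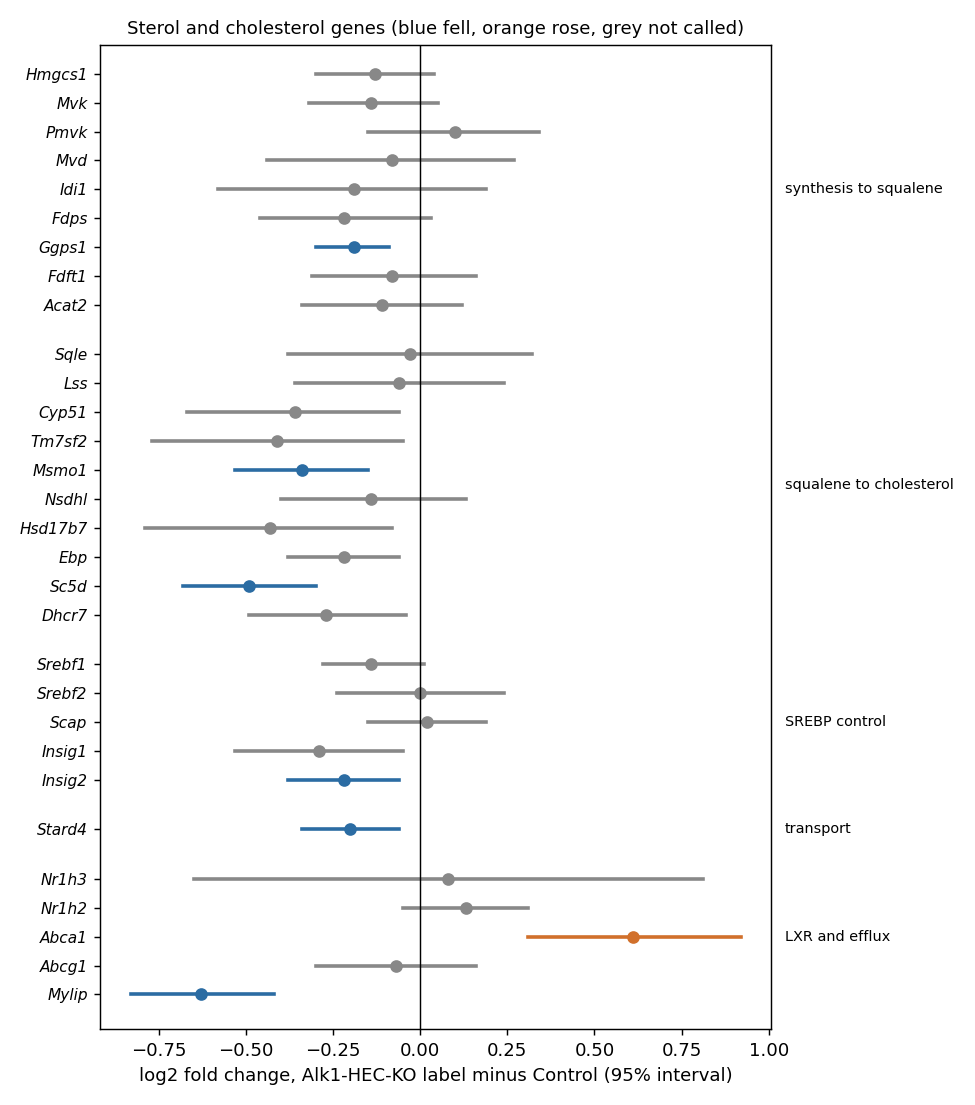
Log2 fold change of each of the 30 genes (points) with its 95% interval (lines) on the x axis, grouped by role; blue genes fell, the orange gene rose and grey genes were not called. The estimates of all 10 enzymes that act after squalene lie left of 0 with TMM scaling (15 of all 19 enzymes on log2 TPM), and Mylip (-0.63) and Abca1 (0.61) lie at opposite ends.

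The levels per transcript length differed widely. Mylip, which encodes a ubiquitin ligase, stood at the top with 241 ± 34.2 TPM in the controls (SD, n = 5), followed by Nr1h2 (LXR-beta) at 88.3 ± 8.07, the sterol exporter Abcg1 at 51.5 ± 9.66 and the isomerase Ebp at 47.9 ± 2.61 TPM. Abcg1 and Ebp did not differ beyond their spread in the controls. A dense middle group followed, in which Srebf1 (36.9 ± 4.6 TPM), Msmo1 (35.9 ± 3.46), Insig1 (35 ± 6.73), Fdps (34.7 ± 4.01), Stard4 (32.7 ± 4.74) and Srebf2 (32.2 ± 2.75) could not be ordered beyond their spread. Nr1h3 (LXR-alpha) was at 19.5 ± 7.58 TPM, below Nr1h2. At the low end stood Cyp51 at 5.49 ± 1.12, Hsd17b7 at 2.66 ± 0.713 and Lss, the cyclase that closes the sterol ring, at 1.59 ± 0.611 TPM.

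**Figure D2:**
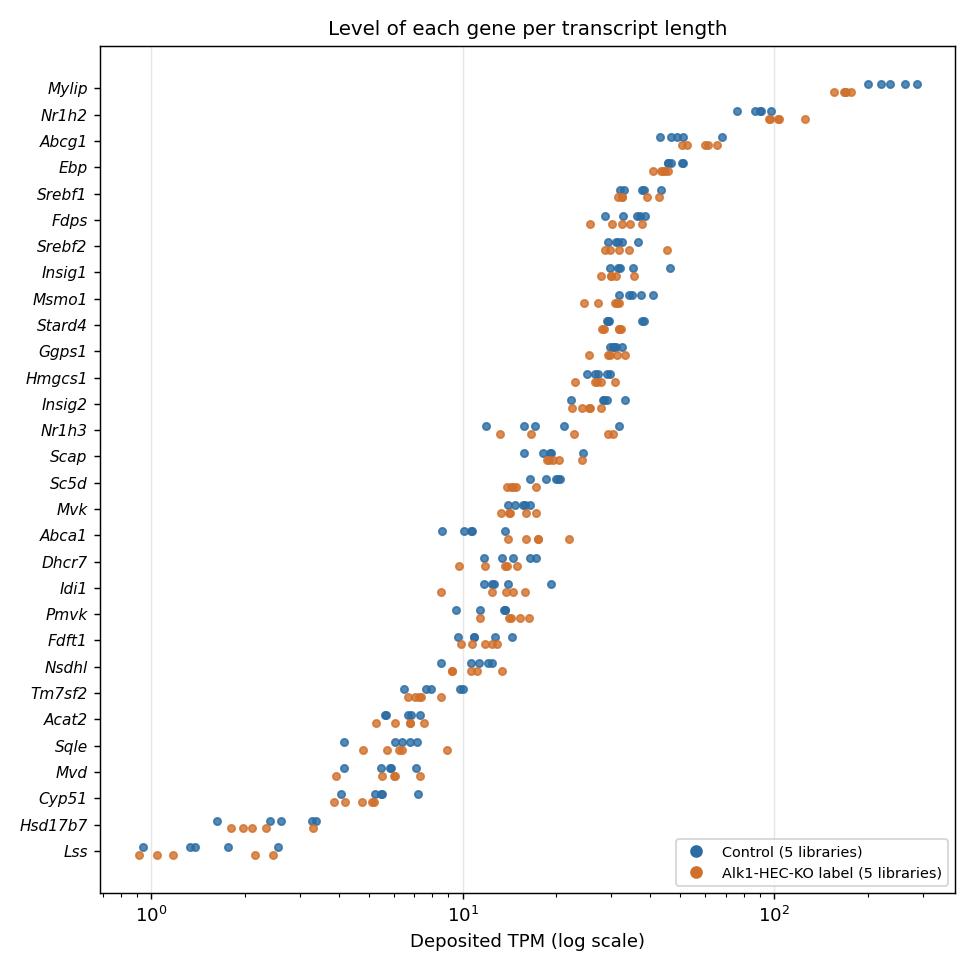
Deposited TPM of each gene on a log axis, genes ordered by their mean over 10 libraries; blue points are the 5 controls and orange points the 5 knockout-labelled libraries. Mylip is the highest of the 30 genes in both groups (means of 241 and 168 TPM) and Lss the lowest (1.59 and 1.55 TPM).

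Of the 10 enzymes that act after squalene 2 fell and 8 did not pass (20% called, beside 19.7% of all genes tested). Sc5d, the desaturase that puts in the C-5 double bond, was at 27.6, 33.1, 28.2, 35.8 and 35.6 CPM in controls 1 to 5 and at 20.1, 22.8, 24, 22.8 and 24.1 CPM in knockout-labelled libraries 1 to 5. The groups did not overlap, and controls 4 and 5 were the highest. The change was a 1.41-fold fall (log2 fold change -0.49 ± 0.09 SE, edgeR adjusted p = 0.0016), and Sc5d was called in all 22 alternatives tried, with adjusted p from 7.9e-06 to 0.024. Msmo1, the oxidase that starts removal of the C-4 methyl groups, had control values of 31.2, 35.1, 33.5, 39.6 and 40.4 CPM and knockout-labelled values of 24.6, 27.3, 31.9, 28.6 and 29.5 CPM. Only control 1 lay below the highest knockout-labelled library, which was library 3. Msmo1 fell 1.27-fold (-0.34 ± 0.09, edgeR adjusted p = 0.015), and the call was lost when controls 4 and 5 were left out (-0.24, adjusted p = 0.11). On log2 TPM limma gave -0.29 and -0.3 for Msmo1 (adjusted p = 0.06 and 0.072 with pseudocounts of 1 and 0.1).

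The other 8 enzymes after squalene did not pass, and their intervals show how much change the data allow. Hsd17b7, a ketosteroid reductase, averaged 6.39 ± 1.11 CPM among controls and 4.74 ± 0.987 CPM in the other group (SD, n = 5 each; log2 difference -0.43, 95% interval -0.79 to -0.08, edgeR adjusted p = 0.084). Tm7sf2, a sterol reductase, was at 6.29 ± 1.46 and 4.74 ± 0.658 CPM (interval -0.77 to -0.05), and Cyp51, the lanosterol demethylase, at 13.5 ± 2.77 and 10.5 ± 1.19 CPM (interval -0.67 to -0.06). Control 1 had the lowest value of the controls for both, and when it was left out Cyp51 and Tm7sf2 were called (adjusted p = 0.011 and 0.039). Dhcr7, the last reductase of the route, had an interval of -0.49 to -0.04 and Ebp one of -0.38 to -0.06 (edgeR adjusted p = 0.093 and 0.056). Ebp was called in 7 of 22 alternatives, among them those without control 1, control 5 or knockout-labelled library 4 (adjusted p from 0.022 to 0.047). Hsd17b7 was called in 4, among them those without control 3 or knockout-labelled library 5 (adjusted p = 0.046 and 0.02). For Nsdhl, the decarboxylating partner of Msmo1, for Sqle, the epoxidase that opens the route, and for Lss the intervals ran from -0.4 to 0.13, from -0.38 to 0.32 and from -0.36 to 0.24.

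Of the 9 enzymes up to squalene and its branches 1 fell and 8 did not pass (11.1% called, beside 19.7% of all genes tested). Ggps1, which makes the geranylgeranyl unit for protein prenylation and so stands on a side branch, had control values of 48.6, 47.5, 47.5, 52.1 and 50.1 CPM and knockout-labelled values of 43.4, 41, 45.6, 43.1 and 42.4 CPM. The groups did not overlap, but the fall was 1.14-fold (-0.19 ± 0.05, edgeR adjusted p = 0.015). It was not called with library size alone (-0.14, adjusted p = 0.051), on log2 TPM (-0.05 with either pseudocount, adjusted p = 0.69 and 0.7), with a hepatocyte marker covariate (-0.2, adjusted p = 0.055) or when controls 4 and 5 were left out (-0.16, adjusted p = 0.11). Of the 31-base words in the transcripts of Ggps1, 14.89% also stand in transcripts of other genes. Hmgcs1, the synthase that makes HMG-CoA, was at 54.1 ± 3.54 and 49.4 ± 5.42 CPM (SD, n = 5 each; log2 difference -0.13, 95% interval -0.3 to 0.04). Mvk, Pmvk and Mvd, which turn mevalonate into isopentenyl diphosphate in successive steps, had estimates of -0.14, 0.1 and -0.08, and Pmvk was the single enzyme of all 19 with an estimate above 0. Idi1 and Fdps, which build the farnesyl chain, had estimates of -0.19 and -0.22, and Fdps was called only without control 1 (adjusted p = 0.038). Fdft1, the squalene synthase, and Acat2, which joins acetyl-CoA units, had intervals of -0.31 to 0.16 and -0.34 to 0.12. Acat2 shares 43.75% of its 31-base words with other genes (Acat3), Fdft1 31.91% (17.61% with Ctsb) and Fdps 27.94% (24.6% with Gm43738). Idi1 shares 27.09% (18.44% with Gm13502), Tm7sf2 of the enzymes after squalene 13.28% (10.72% with Vps51), Hmgcs1 13.11% and Scap 11.28%. The values of these genes are uncertain.

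Read together, 18 of the 19 synthesis enzymes had an estimate below 0 (94.7%, against 50% of all genes tested), and 3 of 19 fell (15.8%, against 9.08% of all genes tested that were called lower). The median log2 fold change was -0.19, with -0.3 for the 10 enzymes after squalene and -0.13 for the 9 before, a difference that was not tested. With library size alone 17 of 19 estimates were below 0 (median -0.14), and on log2(TPM + 1) 15 of 19 (median -0.05). Set against the median of all genes in the same fit, 18 of 19 were lower under each of these scalings. Between TMM and library size alone the estimates move almost together, so that count could hardly differ there. Without controls 4 and 5, 15 of 19 estimates were below 0 and 14 of 19 below the median of all genes. That pair was highest in CPM for most of these enzymes, so leaving it out weakens the falls by itself. In deposited TPM the 19 enzymes summed to 298, 323, 295, 304 and 338 in controls 1 to 5 and to 292, 302, 287, 265 and 298 in knockout-labelled libraries 1 to 5, and these ranges overlap. Controls 4 and 5 held the highest CPM for 7 and 6 of the 19 enzymes, and knockout-labelled libraries 1, 3 and 4 the lowest for 5, 4 and 4. This depends on the scaling, as control 4 had the lowest TMM factor (0.943), which raises its CPM. In TPM control 4 was the highest for Tm7sf2 alone. Knockout-labelled libraries had the highest TPM for Hmgcs1, Mvk, Pmvk, Mvd, Ggps1, Acat2, Sqle and Nsdhl, and controls for the other enzymes. In CPM control 1 was as low as the knockout-labelled libraries. Its median deviation from the mean of all libraries was -0.08 on the log2 CPM scale, against 0.05 to 0.19 for controls 2 to 5. With the mean log2 CPM of the hepatocyte markers as a covariate the median of the 19 was -0.15, and 16 of 19 were below 0. The hepatocyte marker sums of controls 4 and 5 were 2262.1 and 617 TPM.

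**Figure D3:**
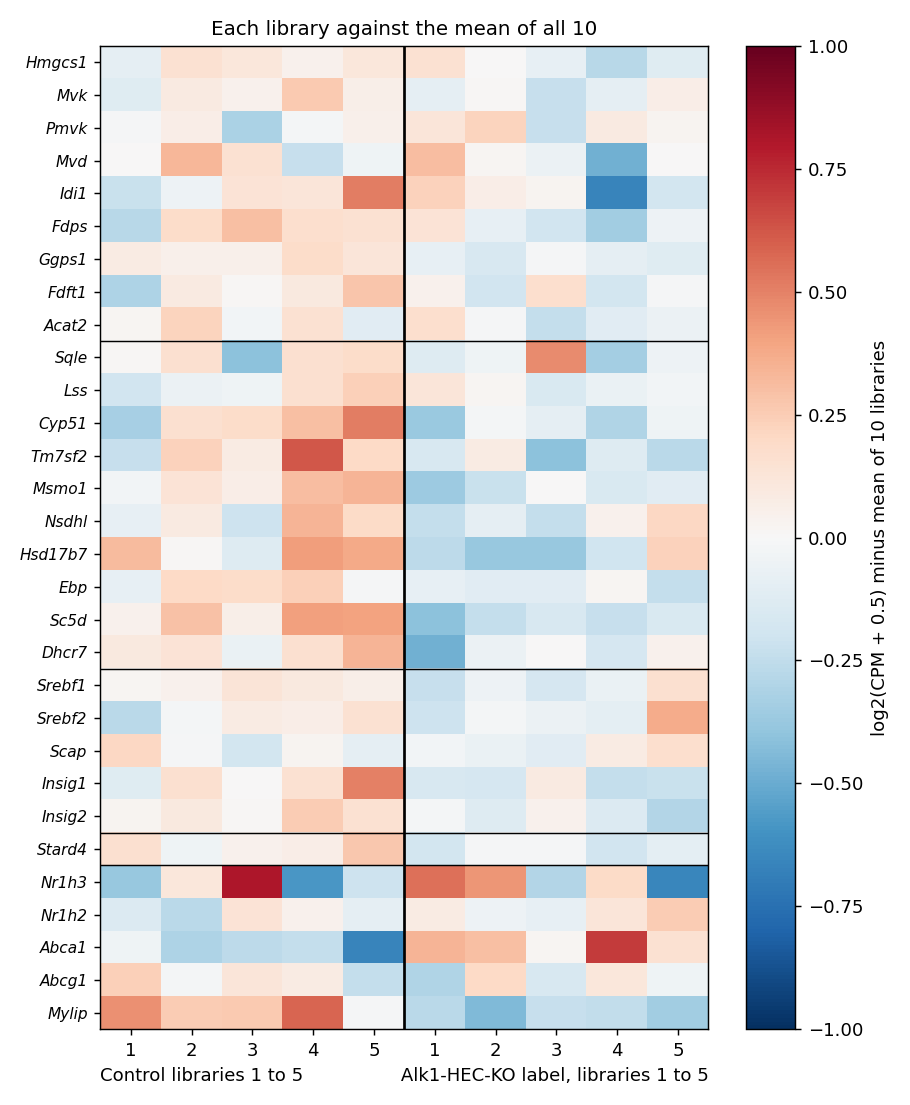
Each cell gives the log2(CPM + 0.5) of a gene (rows) in a library (columns) minus its mean over all 10 libraries; red is above and blue below that mean, and a vertical line divides the 5 controls from the 5 knockout-labelled libraries. Synthesis enzymes are redder in controls 2, 4 and 5 (median deviations of 0.14, 0.17 and 0.19) than in control 1 (-0.08), and Nr1h3 varies within both groups.

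The gene with a match to the sterol element, the 2 called enzymes after squalene, and the LXR targets Mylip and Abca1 are shown. Promoter sequences of these 5 members can be read side by side. They are RefSeq windows on GRCm38.p6, from 250 bases before to 50 bases after an annotated start, written 5′ to 3′ on the gene's own strand. The windows are chr13:119690101-119690400 (plus strand) for Hmgcs1, chr9:42264251-42264550 (minus) for Sc5d, chr8:64733529-64733828 (minus) for Msmo1, chr13:45389492-45389791 (plus) for Mylip and chr4:53159846-53160145 (minus) for Abca1. Capitals mark 2 motifs that were searched on both strands and do not overlap here: TCACNCCAC, a form of the sterol regulatory element that SREBPs bind, and CCAAT, the box bound by NF-Y, a partner of SREBPs, which reads ATTGG when it lies on the other strand.
Hmgcs1: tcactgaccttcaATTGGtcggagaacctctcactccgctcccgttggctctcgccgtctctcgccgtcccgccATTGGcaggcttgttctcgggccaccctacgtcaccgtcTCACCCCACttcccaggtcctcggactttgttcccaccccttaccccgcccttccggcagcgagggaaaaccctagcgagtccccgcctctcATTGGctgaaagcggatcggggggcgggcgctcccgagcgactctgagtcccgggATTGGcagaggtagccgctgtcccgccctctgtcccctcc
Sc5d: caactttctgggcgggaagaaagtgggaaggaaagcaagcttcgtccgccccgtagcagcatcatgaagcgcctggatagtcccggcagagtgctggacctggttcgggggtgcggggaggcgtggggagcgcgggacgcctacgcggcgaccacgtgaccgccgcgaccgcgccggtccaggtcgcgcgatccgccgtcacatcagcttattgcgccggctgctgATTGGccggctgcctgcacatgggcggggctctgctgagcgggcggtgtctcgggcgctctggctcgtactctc
Msmo1: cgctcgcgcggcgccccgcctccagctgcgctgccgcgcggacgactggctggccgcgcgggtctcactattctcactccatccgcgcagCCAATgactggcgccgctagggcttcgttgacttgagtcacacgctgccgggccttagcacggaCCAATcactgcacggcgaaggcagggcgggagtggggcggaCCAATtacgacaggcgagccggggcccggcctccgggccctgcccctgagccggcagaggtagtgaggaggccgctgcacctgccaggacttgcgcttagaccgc
Mylip: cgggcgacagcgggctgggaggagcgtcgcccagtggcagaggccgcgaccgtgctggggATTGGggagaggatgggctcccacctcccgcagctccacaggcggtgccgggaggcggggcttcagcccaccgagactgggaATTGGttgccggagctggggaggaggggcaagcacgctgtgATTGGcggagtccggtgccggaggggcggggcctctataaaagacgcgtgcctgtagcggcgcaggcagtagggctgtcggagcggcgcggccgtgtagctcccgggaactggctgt
Abca1: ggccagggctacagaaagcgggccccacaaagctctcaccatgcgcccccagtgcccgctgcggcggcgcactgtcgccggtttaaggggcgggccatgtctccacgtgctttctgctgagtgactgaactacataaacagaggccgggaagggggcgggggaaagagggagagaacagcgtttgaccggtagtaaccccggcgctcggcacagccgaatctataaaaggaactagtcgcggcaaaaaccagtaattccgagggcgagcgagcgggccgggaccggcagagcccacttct

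Windows were found for 25 of the 30 members. The sterol element as spelled was in the windows of 1 of them, Hmgcs1, where it begins at position -137 from the annotated start. Of all 27025 genes with a window, 1.44% had such a match. A CCAAT box was in a window of 20 of the 25 members and of 15 of the 16 synthesis enzymes with a window, against 41.1% of all genes. Sc5d held 1 box, Msmo1 and Mylip 3 each, Hmgcs1 4, and Abca1 none. A match is a run of letters and not a measured site, and Hmgcs1, which holds both motifs, did not pass the test.

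Among the genes that control SREBP, 1 of 5 was called (20%, beside 19.7% of all genes tested) and it stood at the threshold. Insig2, which with Insig1 retains the SCAP and SREBP complex, was at 36.1, 38.1, 35.7, 42.2 and 39.4 CPM in controls 1 to 5 and at 34.8, 32.2, 36.5, 32 and 28.9 CPM in libraries 1 to 5 of the other group. Controls 1 and 3 lay within the range of that group. Insig2 fell 1.16-fold (-0.22 ± 0.07, edgeR adjusted p = 0.0499). Leaving out any 1 of controls 2, 4 and 5 or of knockout-labelled libraries 1, 2, 4 and 5 ended the call (adjusted p from 0.052 to 0.12), and Insig2 was called in 5 of 22 alternatives. Insig1, itself a target of SREBP, had control values of 46.8, 56.7, 50.8, 56.6 and 72.3 CPM and knockout-labelled values of 45.5, 45.2, 54.2, 43.1 and 43.6 CPM. Control 5 was the highest of the controls, and library 3 stood far above the others of its group. The log2 difference was -0.29 (95% interval -0.53 to -0.05, edgeR adjusted p = 0.083), and Insig1 was called without control 1 or without knockout-labelled library 3 (adjusted p = 0.034 and 0.039). Srebf2, which encodes SREBP-2, was at 90.7 ± 9.73 and 90.8 ± 15 CPM (SD, n = 5 each), with an interval of -0.24 to 0.24. Scap was at 48.3 ± 5.01 and 48.8 ± 3.95 CPM (interval -0.15 to 0.19). Srebf1, the gene of the isoforms that favour fatty acid synthesis, was at 81 ± 2.42 and 73.5 ± 7.87 CPM (interval -0.28 to 0.01), and was called without knockout-labelled library 5, the highest of its group at 86 CPM (adjusted p = 0.019). These counts measure transcript and not the cleavage of the SREBP proteins.

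Stard4, a soluble carrier that moves sterol between membranes, had control values of 105, 90.7, 95.9, 98.5 and 113 CPM and knockout-labelled values of 82.2, 92.6, 92.8, 82 and 87.5 CPM. Control 2 was the one control within the range of the other group. Stard4 fell 1.15-fold (-0.2 ± 0.06, edgeR adjusted p = 0.045). Leaving out any 1 of controls 1, 4 and 5 or of knockout-labelled libraries 1, 4 and 5 ended that call (adjusted p from 0.071 to 0.1). It was also lost with library size alone (adjusted p = 0.15), with limma-voom (0.053), on log2 TPM (0.58 and 0.59) and when controls 4 and 5 were left out (0.17).

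**Figure D4:**
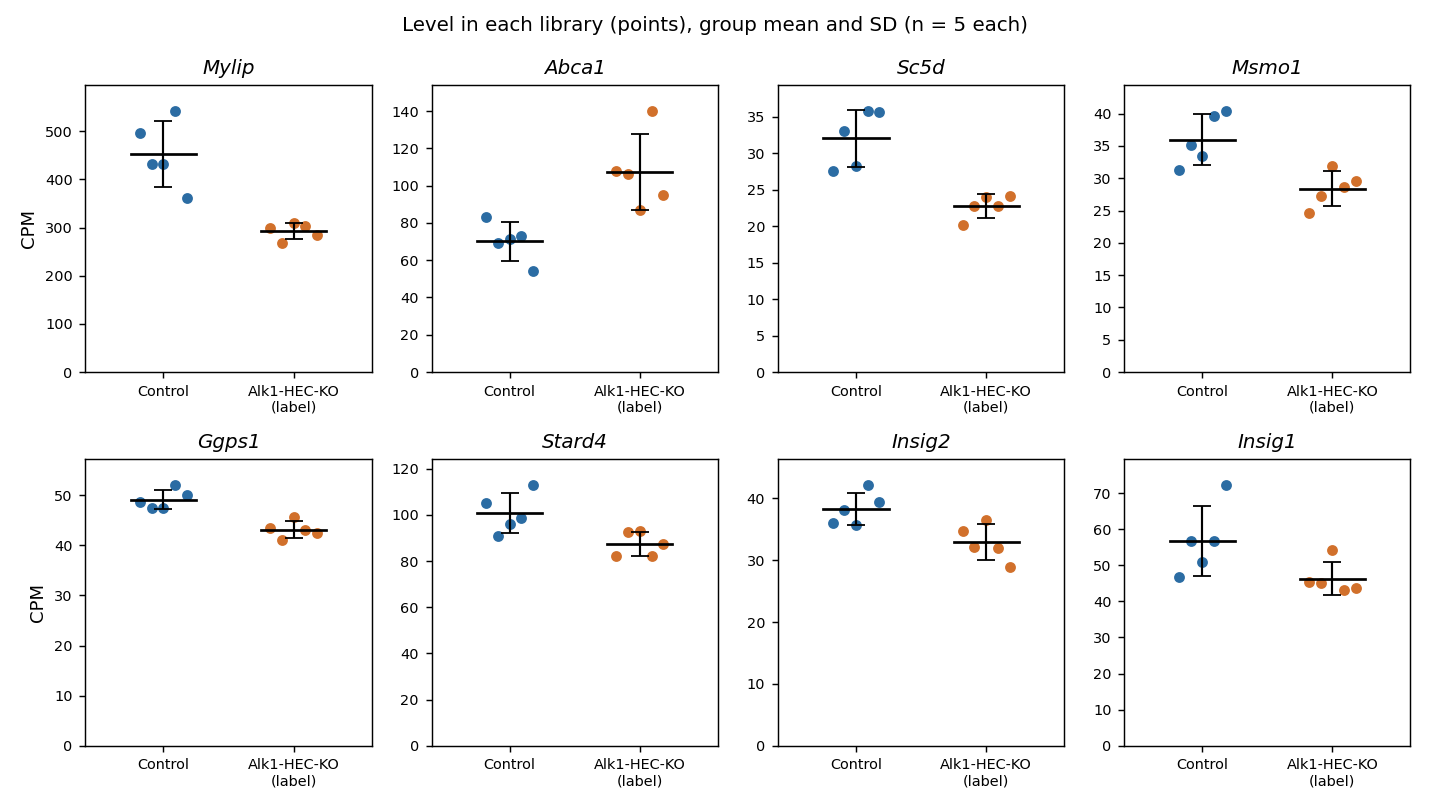
CPM of 8 genes in each library (points, from left to right libraries 1 to 5 of a group), with the group mean (wide bar) and SD (error bar, n = 5). Mylip, Abca1, Sc5d and Ggps1 do not overlap between the groups, while Msmo1, Stard4, Insig2 and Insig1 do.

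The largest changes among the members were in LXR targets, and they went in opposite directions. Mylip, also called Idol, is an LXR-induced ubiquitin ligase that sends lipoprotein receptors to degradation, and lies on chromosome 13 from 45389742 to 45412022 (ENSMUSG00000038175.10, GRCm38). It was at 497, 432, 433, 542 and 361 CPM in controls 1 to 5 and at 300, 268, 309, 304 and 284 CPM in knockout-labelled libraries 1 to 5. Each control was above each knockout-labelled library, and the controls spread more (SD of 69.1 against 16.8 CPM). Mylip fell 1.55-fold (-0.63 ± 0.09, edgeR adjusted p = 0.0005), and it was called in all 22 alternatives with log2 fold changes from -0.7 to -0.51. Abca1, the LXR-induced pump that loads cholesterol onto lipid-poor apolipoproteins, lies on chromosome 4 from 53030787 to 53159895 (ENSMUSG00000015243.4). Its control values were 83.4, 69.3, 71.4, 72.7 and 54.1 CPM and its knockout-labelled values 108, 106, 86.9, 140 and 94.9 CPM. Control 5 was the lowest, library 4 the highest, and the groups did not overlap. Abca1 rose 1.53-fold (0.61 ± 0.14, edgeR adjusted p = 0.01), and was called in 21 of 22 alternatives, all but the one that leaves out controls 4 and 5 (0.51, adjusted p = 0.051).

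The efflux gene Abcg1 and both receptors did not pass. Abcg1, which exports sterol to mature HDL, was at 182 ± 22 and 173 ± 24 CPM (SD, n = 5 each; log2 difference -0.07, 95% interval -0.3 to 0.16). The sign of that estimate varied over the alternatives, from -0.15 without controls 4 and 5 to 0.19 on log2(TPM + 0.1). Nr1h2 was at 92.5 ± 10.3 and 101 ± 9.45 CPM (interval -0.05 to 0.31). Nr1h3 had control values of 15.3, 21.7, 35.5, 13.3 and 17.2 CPM and knockout-labelled values of 29.7, 27.4, 16.3, 23 and 12.5 CPM, a wide spread in both groups (interval -0.65 to 0.81). Control 3, the highest for Nr1h3, also had the highest sum of the 12 Kupffer cell markers (2675.9 CPM), and control 4 and knockout-labelled library 5, the lowest for Nr1h3, had the lowest such sums of their groups (857 and 740 CPM). With the mean log2 CPM of the Kupffer cell markers as a covariate the log2 difference of Nr1h3 was 0.06 (adjusted p = 0.69), and those of Abca1 and Mylip were 0.6 and -0.62 (adjusted p = 0.019 and 0.00033). With the hepatocyte marker covariate Abca1 and Mylip were at 0.75 and -0.53 (adjusted p = 0.015 and 0.0092).

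The rest of the pathway was read from 5 lists of genes. They were chosen with earlier results of these data known, so their called shares are descriptions and not tests. Of 18 genes that take up, store and move sterol 3 rose, 2 fell and 13 did not pass (27.8% called, against 19.7% of all genes). Scarb1, the HDL receptor SR-BI, had control values of 263, 265, 287, 298 and 351 CPM and knockout-labelled values of 774, 925, 783, 977 and 869 CPM, a 2.95-fold rise (1.56 ± 0.09, edgeR adjusted p = 2.5e-07). Pltp, the phospholipid transfer protein, averaged 65.9 ± 13.3 CPM among controls and 234 ± 38.6 CPM in the other group, a 3.55-fold rise (SD, n = 5 each; adjusted p = 1.8e-05, edgeR). Both lists of values were without overlap, and both genes were called in all 22 alternatives. Lipa, the lysosomal lipase that frees cholesterol from its esters, rose 1.28-fold (0.35 ± 0.06), and Gramd1c, of a family that carries sterol from the plasma membrane to the endoplasmic reticulum, fell 1.91-fold from 11 ± 2.26 to 5.79 ± 1.12 CPM. Gramd1c was not called by limma on log2(TPM + 0.1) (-0.71, adjusted p = 0.06).

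**Figure D5:**
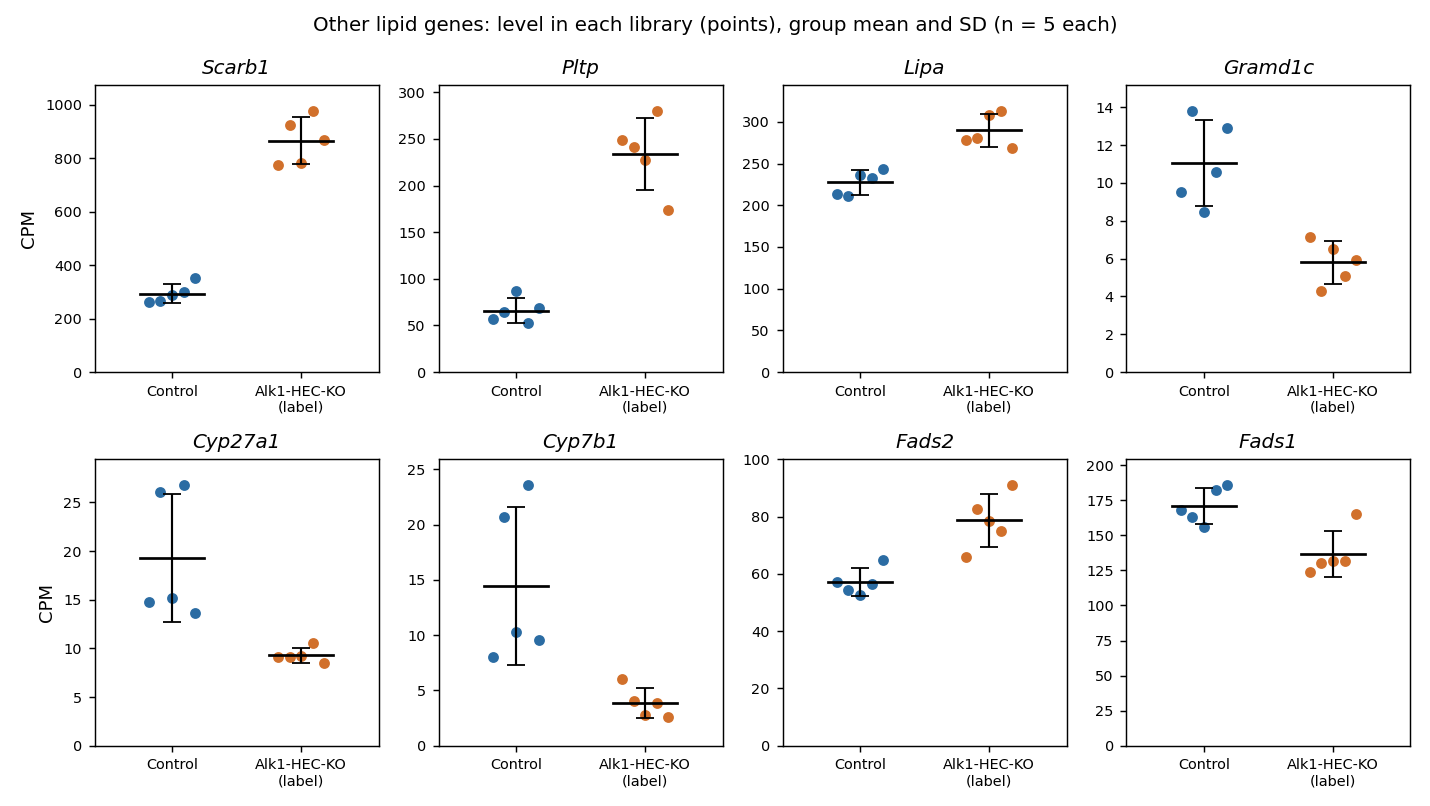
CPM of 8 other lipid genes in each library (points, from left to right libraries 1 to 5 of a group), with the group mean (wide bar) and SD (error bar, n = 5). Scarb1 and Pltp are higher in each knockout-labelled library than in any control, and Cyp27a1 and Cyp7b1 are highest in controls 2 and 4.

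Other LXR-related genes and oxysterol enzymes also moved both ways. Of 14 listed 12 were tested, of which 3 rose, 4 fell and 5 did not pass (58.3% called, beside 19.7% of all genes tested). The LXR targets Smpdl3a and Arl4c went in opposite directions, from 166 ± 9.96 to 122 ± 13.2 CPM and from 36.5 ± 2.8 to 50.5 ± 7.81 CPM (SD, n = 5 each; log2 fold changes -0.44 and 0.47, edgeR adjusted p = 0.0013 and 0.0051). The oxysterol enzymes Cyp27a1, a sterol 27-hydroxylase, and Cyp7b1, an oxysterol 7-alpha-hydroxylase, fell from 19.3 ± 6.57 to 9.29 ± 0.79 CPM and from 14.5 ± 7.15 to 3.86 ± 1.35 CPM (2.08-fold and 3.73-fold). For both, controls 2 and 4 were the highest (26.1 and 26.8 CPM for Cyp27a1, 20.7 and 23.6 CPM for Cyp7b1), as they were for the hepatocyte marker sum. With the hepatocyte marker covariate their log2 fold changes were -0.62 and -1.15 in place of -1.05 and -1.9 (adjusted p = 0.026 and 0.0029), and Arl4c was not called (0.39, adjusted p = 0.059).

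Of 14 genes of the fatty acid arm that SREBPs also control 3 rose, 1 fell and 10 did not pass (28.6% called, beside 19.7% of all genes tested). Their median log2 fold change was 0.04, beside -0.19 for the 19 sterol enzymes, a difference that was not tested. Fads2 and Fads1, neighbouring desaturases of polyunsaturated fatty acids, went in opposite directions. Fads2 rose from 57.2 ± 4.77 to 78.7 ± 9.3 CPM (1.38-fold, edgeR adjusted p = 0.0019), and Fads1 fell from 171 ± 12.8 to 137 ± 15.9 CPM (1.25-fold, adjusted p = 0.013; on log2 TPM 0.16 and 0.18, and 0.096 without controls 4 and 5). Acaca, the acetyl-CoA carboxylase, and Elovl5, an elongase, rose by 0.26 ± 0.08 and 0.23 ± 0.07 (adjusted p = 0.043 and 0.044). The call of Acaca ended in 8 of the 10 fits without 1 library and that of Elovl5 in 7 (adjusted p from 0.057 to 0.11 and from 0.064 to 0.12): for Acaca all but those without control 1 or knockout-labelled library 4, for Elovl5 all but those without control 5 or knockout-labelled library 1 or 4. Neither was called with the hepatocyte marker covariate (adjusted p = 0.27 and 0.3), on log2 TPM (from 0.066 to 0.2), or when controls 4 and 5 were left out (0.17 and 0.062).

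Of 15 genes that process SREBPs or degrade sterol enzymes 3 rose, 3 fell and 9 did not pass (40.0% called, beside 19.7% of all genes tested). Erlin1, a membrane protein of the endoplasmic reticulum that takes part in this control, rose by 0.32 ± 0.07 on the log2 scale, and Ube2g2, a ubiquitin-conjugating enzyme of that compartment, by 0.29 ± 0.08 (edgeR adjusted p = 0.0049 and 0.018; 0.058 and 0.094 with the hepatocyte covariate). Tmem97, a sterol-responsive membrane protein, fell from 16.7 ± 1.89 to 12 ± 1.7 CPM without overlap (SD, n = 5 each; -0.48 ± 0.11, adjusted p = 0.0086). It was not called on log2 TPM (adjusted p = 0.057 and 0.069) or when controls 4 and 5 were left out (0.072). Rnf145, a sterol-responsive ubiquitin ligase, fell by 0.34 ± 0.1 (adjusted p = 0.027), and leaving out any 1 of controls 3, 4 and 5 or of knockout-labelled libraries 2 and 4 ended that call (adjusted p from 0.0503 to 0.069). Rnf145 was also not called on log2 TPM (adjusted p = 0.16 and 0.18), and neither Rnf145 nor Ube2g2 when controls 4 and 5 were left out (0.15 and 0.14). In the isoprenoid branch beyond Ggps1 0 of 13 genes were called by edgeR, limma-voom or DESeq2 (2 had an unadjusted p under 0.05 by each). The smallest p-values there were those of Nus1, a subunit of the enzyme that makes the dolichol precursor (0.21, 95% interval 0.04 to 0.37, adjusted p = 0.074), and Dolk, the dolichol kinase (-0.17, interval -0.33 to -0.02, adjusted p = 0.11). Nus1 was called without control 3 (0.27, adjusted p = 0.017) and with library size alone (0.26, adjusted p = 0.036).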

How the data were processed

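RNA from 10 mouse liver endothelial preparations was sequenced on a BGISeq-500, per the labels' protocols. The submitters' processing notes name Trim Galore 0.6.4, kallisto 0.4.6 and GRCm38.p6; the annotation release is not given in the sources used here. The authors deposited 1 table of estimated counts and 1 of TPM per library. Of 55385 identifiers, 55144 matched a GENCODE M21 symbol. Estimated counts were rounded, filtered (filterByExpr, minimum count 10), scaled by TMM and tested over 15043 genes with edgeR 4.0.16 (quasi-likelihood, 5 against 5, R 4.3.3) at a Benjamini-Hochberg adjusted p of 0.05. Every adjusted p comes from a fit across all genes. Fits on log2 TPM are by limma 3.58.1, and others by edgeR unless limma or DESeq2 1.42.0 is named. Tested on simulated data with 200 changed genes, the script called 67.2% of those changed 1.5-fold and 82.1% of those changed 2-fold. Of its calls 5.8% were false. Far fewer genes changed there than were called in the data, so these shares may not carry over. Within each group, no libraries agreed within sampling noise. Pairs across the groups were not compared. The members and lists were chosen with earlier results of these data known. All members are accounted for; in each other list up to 4 called genes with the smallest p are named, or 2 where none was called. Alternatives were other scalings, filters and tests, log2 TPM, marker covariates, a replicate block, and libraries left out. Each library was left out alone, and controls 4 and 5 were left out as the only pair. Some other genes of sterol synthesis and lipoprotein uptake are not analysed here.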

Additional observations from a re-analysis of the deposited data

Results flagged for a closer look

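In 5 of 96 groups of 5 libraries, 1 library stood far from the other 4 (gap over range above Dixon's critical value of 0.71), and chance gives about 1 in 20. Pmvk was at 6.59 CPM in control 3, where the other controls were at 8.23 to 8.84. Hsd17b7 was at 6.44 CPM in knockout-labelled library 5, against 4.06 to 4.67 in the rest of its group, and Insig1 at 54.2 CPM in knockout-labelled library 3, against 43.1 to 45.5. Fads1 was at 165 CPM in knockout-labelled library 5 (124 to 132 in the others), and Smpdl3a at 99.6 CPM in the same library (123 to 131 in the others).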

How the results depend on the processing

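Of 660 values of single members under 22 alternatives, 605 kept their side of the threshold, 38 lost a call, 17 gained one and 0 reversed a call. Sc5d and Mylip were called throughout. Over all genes, 2959 calls became 1830 with the hepatocyte covariate and 1940 without controls 4 and 5. The 7 member calls became 4 with library size alone (3 lower), 3 with either TPM pseudocount (2 lower), and 2 without controls 4 and 5 (0 higher by edgeR, 2 lower). Leaving out 1 library gave 5 to 11 member calls, 4 to 10 of them lower, with most when control 1 and fewest when control 4 or knockout-labelled library 1 was left out. The 22 calls in the other lists became 14 and 12 on log2 TPM with pseudocounts of 1 and 0.1, 14 with the hepatocyte covariate and 11 without controls 4 and 5. The cause was not tested. The titles do not say whether same-numbered libraries are paired. Same-numbered deviations correlated at -0.196, 0.35, 0.015, 0.108 and 0.284, and not every library correlated best with its own number. Such correlations can neither show nor exclude a pairing. With the replicate block 2567 genes, 7 members and 17 listed genes were called; Insig2 and Stard4 lost their calls (adjusted p = 0.11 and 0.099) and Ebp and Hsd17b7 gained one (0.048 and 0.0496). Changes near the size of those of Stard4 and Ggps1 are small beside the 1.5-fold changes of which 67.2% were recovered on simulated data.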
